A study of Mus musculus with 8 samples.

Results

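Sulfonation and epoxide hydrolysis were followed through 8 genes in mouse esophageal epithelium: the cytosolic sulfotransferases Sult1d1, Sult1a1 and Sult2b1, the sulfate donor synthases Papss1 and Papss2, and the epoxide hydrolases Ephx1, Ephx2 and Ephx3. All 8 are among the 55276 gene symbols of the deposited count table. The group was chosen by the difference between the fractions compared here: Sult1d1 has one of the most negative, the 5th lowest log2 fold change of 17344 tested genes, and the other 7 genes were added by function. The difference between the fractions in these 8 genes is therefore given as a description, with its standard error and without a p-value. Where one of these genes is said to pass or not to pass a threshold, the call describes the fit and is no support for a difference.

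The cells came from C57BL6 mice aged 14 to 15 weeks, for which the labels name no genetic change and no treatment other than the dye. Peeled and digested epithelium was sorted by flow cytometry for live cells, which exclude DAPI, that carry integrin beta-1 on their surface, a protein of cells that touch the basement membrane. These cells were parted by Cyto-ID, which stains autophagic vesicles, into a fraction with little dye (Cyto-ID Low) and a fraction with much dye (Cyto-ID High), so that both fractions share the integrin gate and differ in dye. There were 8 RNA libraries, 1 of each fraction from Female1, Female2, Male1 and Male2, hence 4 per fraction, and the labels do not say whether a name stands for 1 animal or a pool. If libraries of a fraction did not come from separate animals, the p-values measure only the spread between these samples, which may be technical.

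Cytosolic sulfotransferases move a sulfonate group from the donor PAPS onto hydroxyl or amino groups of hormones, catechols, sterols and foreign compounds. PAPS is built from sulfate and ATP by the Papss enzymes, which carry both required activities in 1 protein. In keratinizing epithelia Sult2b1 makes cholesterol sulfate, a lipid of the barrier. Epoxide hydrolases add water to epoxides. Ephx1 sits in the endoplasmic reticulum and is known for foreign epoxides, Ephx2 is cytosolic and acts on fatty acid epoxides, and Ephx3 also acts on fatty acid epoxides and takes part in the covalent lipid barrier of the epidermis.

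Libraries held 26285150 to 29301054 counts. Values are CPM, the counts of a gene relative to the depth of its library, scaled with TMM factors (trimmed mean of M values), which set libraries to a common level of their typical gene. Markers of basal and suprabasal keratinocytes were all detected in both fractions. The summed level of 10 basal markers was 21887 to 26136 CPM in Low and 2838 to 4511 CPM in High, and that of 12 suprabasal markers 9374 to 26729 CPM in Low and 144115 to 247082 CPM in High. Every result below runs along with this change of epithelial layer markers, and its part in them was not tested. In bulk RNA, fewer cells of a type and less RNA per cell cannot be told apart. Libraries of 2 animals stood apart: the High library of Male2 had the lowest summed markers of non-epithelial cells (fibroblast markers at 38.7 CPM, where the other 3 High libraries had 152 to 471), and both libraries of Female2 held gastric markers (19.8 CPM in Low and 117 CPM in High, against at most 1.39 in the other 6).

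In outline, Cyto-ID Low libraries held both Sult1d1 and Sult2b1, and Ephx1 as the leading hydrolase. Cyto-ID High libraries held little Sult1d1, 5.46-fold more Sult2b1, and Ephx3 in place of Ephx1 as the leading hydrolase. Of the 8 genes, 4 were higher in High (Sult2b1, Papss1, Ephx2 and Ephx3), 1 was lower (Sult1d1) and 3 did not pass an adjusted p of 0.05 (Sult1a1, Papss2 and Ephx1). Over all genes 48.7% passed, 23.4% higher and 25.3% lower. The fractions did not overlap in CPM for 6 of the 8 genes, against 48.6% of all tested genes (23.6% with High above Low and 24.9% with High below). Since the fractions' difference chose the genes, nothing is read from these counts. With both libraries of Female2 left out, or both of Male2, the counts were again 4 higher, 1 lower and 3 not called. With the animal as a block they were 5 higher, 2 lower and 1 not called, since Papss2 and Ephx1 then passed. All 8 passed the filter on low counts. Sult1a1 did so through the Low libraries, all 4 of which had at least 10 counts, as 1 High library had.

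Start regions are shown for Sult1d1, the gene that falls, and for Sult2b1 and Ephx3, the most abundant sulfotransferase and hydrolase of Cyto-ID High, so that the regions of genes that move in opposite directions can be set side by side. Each window runs from 250 bases before to 50 bases after a RefSeq start on GRCm38.p6, all on the minus strand. They lie at chr5:87568957-87569256 for Sult1d1, at chr7:45742429-45742728 for 1 of the 2 Sult2b1 starts in RefSeq, and at chr17:32189421-32189720 for Ephx3. Capitals mark matches, on either strand, to any of 6 motifs: AP-1 (TGANTCA), the xenobiotic response element (TNGCGTG), the antioxidant response element (TGACNNNGC), the Grainyhead motif (AACCNGTT), the TATA box (TATAAA) and the CCAAT box (CCAAT).
Sult1d1: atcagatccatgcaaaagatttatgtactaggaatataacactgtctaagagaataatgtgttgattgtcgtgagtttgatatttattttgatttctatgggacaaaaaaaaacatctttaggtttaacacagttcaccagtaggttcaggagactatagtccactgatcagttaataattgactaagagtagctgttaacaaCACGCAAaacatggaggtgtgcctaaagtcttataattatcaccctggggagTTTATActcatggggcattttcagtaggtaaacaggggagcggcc
Sult2b1: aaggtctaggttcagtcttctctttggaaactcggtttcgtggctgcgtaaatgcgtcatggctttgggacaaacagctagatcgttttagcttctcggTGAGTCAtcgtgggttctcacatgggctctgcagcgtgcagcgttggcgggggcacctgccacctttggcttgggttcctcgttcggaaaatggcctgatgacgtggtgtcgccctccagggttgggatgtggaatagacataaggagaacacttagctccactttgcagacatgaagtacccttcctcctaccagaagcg
Ephx3: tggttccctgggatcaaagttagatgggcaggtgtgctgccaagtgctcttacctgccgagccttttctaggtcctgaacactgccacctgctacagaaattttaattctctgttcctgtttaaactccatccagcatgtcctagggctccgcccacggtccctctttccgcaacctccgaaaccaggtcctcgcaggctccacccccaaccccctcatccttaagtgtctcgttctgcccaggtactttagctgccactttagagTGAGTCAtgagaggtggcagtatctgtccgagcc

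The AP-1 match of Sult2b1 began 151 bases before the start and that of Ephx3 16 bases after it. Among 10 windows of 7 of the genes these were the only 2 with an AP-1 match, which 7.81% of all 32851 windows held. The Sult1d1 window held a xenobiotic response element match 47 bases before the start (5.07% of all windows) and a TATA match on the opposite strand 5 bases after it (13.6%). Neither is particular to it: each of these motifs was in 2 of the 10 windows, the other being a Papss1 window for the xenobiotic response element and an Ephx1 window for the TATA box. The other Sult2b1 window, at chr7:45759563-45759862, held none of the 6 motifs. No window of the genes held an antioxidant response element or a Grainyhead match, against 12.4% and 2.09% of all windows. A match is a run of letters and not a bound site, and the counts per gene cannot tell which Sult2b1 start was used. Ephx2 had no window in the table.

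**Figure D1:**
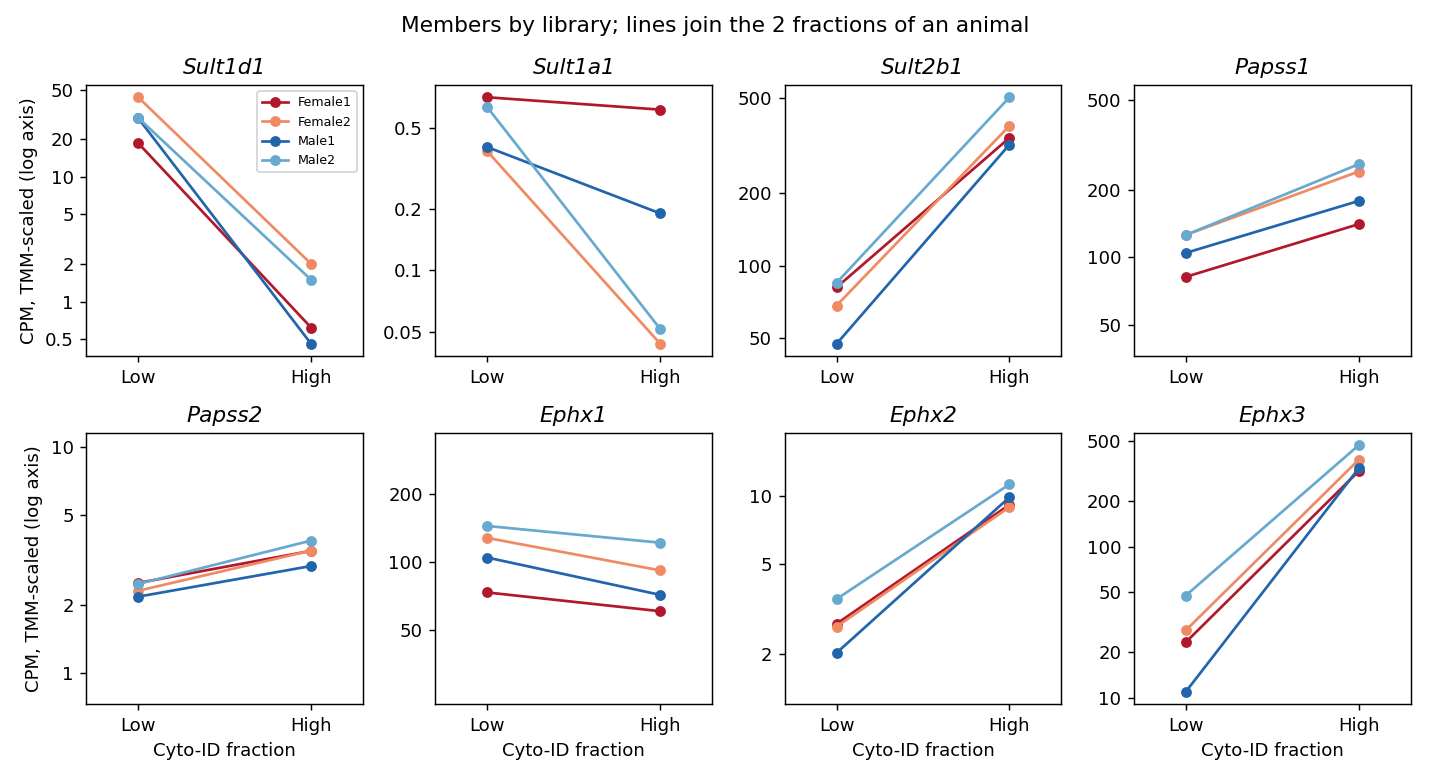
CPM of each gene (TMM-scaled, log axis) in the Cyto-ID Low and High fraction, with a line joining the libraries of Female1, Female2, Male1 and Male2. The lines of Sult1d1 fall and those of Sult2b1, Ephx2 and Ephx3 rise in all 4 animals, while the fractions overlap for Sult1a1 and Ephx1.

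Sult1d1, which in mice sulfonates catecholamines and eicosanoids and is a pseudogene in humans, had the largest difference. Its gene lies on chromosome 5 from 87554645 to 87569027 on the minus strand (GRCm38, GENCODE M21), and no exon of another gene overlaps it. In Cyto-ID Low it stood at 18.6, 43.4, 29.5 and 29.7 CPM for Female1, Female2, Male1 and Male2. In Cyto-ID High it stood at 0.617, 2.00, 0.458 and 1.49 CPM in the same order. Every High library lay far below every Low library, on 12 to 46 counts in High and 603 to 1579 in Low. The means were 30.3 ± 10.2 and 1.14 ± 0.73 CPM (SD, n = 4 each), and the fitted log2 fold change was −4.77 (SE 0.46), a 27.2-fold lower level. Per animal the log2 CPM difference, computed with a prior count of 2, was −4.77, −4.39, −5.81 and −4.25 in that order, so that Male1 had the widest gap.

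Sult1a1, the phenol sulfotransferase of xenobiotic metabolism, was nearly absent. It had 13 to 23 counts in the Low libraries and 16, 1, 5 and 1 in the High libraries of Female1, Female2, Male1 and Male2. The fractions overlapped, with means of 0.533 ± 0.164 and 0.226 ± 0.270 CPM (SD, n = 4 each) and a log2 fold change of −1.24 (SE 0.69). The High library of Female1 decided the size: without it the log2 fold change was −2.41. The gene was kept by the filter through its Low libraries, where it is higher, so no call is read from it. Among the High libraries Sult1a1 stood at 0.617 CPM in Female1 (fibroblast marker sum 471 CPM), 0.191 in Male1 (336), 0.0435 in Female2 (152) and 0.0514 in Male2 (38.7). Among the Low libraries it stood at 0.710 CPM in Female1 (458), 0.634 in Male2 (501), 0.404 in Male1 (317) and 0.385 in Female2 (359), so the orders of gene and markers differed. The part of non-epithelial cells in this gene's level was not tested. Exons of Sgf29 overlap it on the other strand, and the labels do not say whether counting used the strand. Sgf29 held 200 to 381 counts per library, more than Sult1a1 in each.

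Sult2b1, the cholesterol sulfotransferase, went the other way from Sult1d1. It stood at 81.5, 68.5, 47.5 and 85.1 CPM in the Low libraries of Female1, Female2, Male1 and Male2. In the High libraries it stood at 341, 382, 319 and 502 CPM. All High libraries were above all Low libraries, and Male1 was the lowest animal in both fractions. The means were 70.7 ± 17.0 and 386 ± 82 CPM (SD, n = 4 each), with a log2 fold change of 2.45 (SE 0.24), or 5.46-fold. Exons of Lmtk3 and Gm31597 overlap Sult2b1 on the other strand. Lmtk3 had 29 to 231 counts per library against 1529 to 9754 for Sult2b1.

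Because all counts of a library share its scaling, the ratio of 2 genes within a library does not depend on how libraries are scaled. Per kilobase of exon, Sult2b1 was 2.72, 0.982, 1.00 and 1.78 times the level of Sult1d1 in the Low libraries of Female1, Female2, Male1 and Male2. In their High libraries the ratio was 343, 119, 434 and 209. The log2 ratio differed between the fractions by 7.38 ± 0.92 (SD, n = 4 animals). Both transcripts were present in each Low library, and in High libraries Sult2b1 made up 99.1% to 99.6% of the length-corrected counts of the 3 sulfotransferases, where it had been 49.2% to 71.9% in Low. The summed level of the 3 was 30.6 ± 5.1 CPM per kilobase in Low and 98.3 ± 20.7 in High (SD, n = 4 each).

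The donor synthases differed less. Papss1 stood at 81.9, 126, 105 and 126 CPM in the Low libraries of Female1, Female2, Male1 and Male2 and at 140, 240, 178 and 259 CPM in their High libraries. It was higher in High in every animal and the fractions did not overlap, with means of 109 ± 21 and 204 ± 55 CPM (SD, n = 4 each) and a log2 fold change of 0.90 (SE 0.22). Female1 was lowest and Male1 next in both fractions. Papss2 was far scarcer, at 2.17 to 2.50 CPM in Low and 2.97 to 3.86 CPM in High. It did not overlap between the fractions and did not pass the threshold, with a log2 fold change of 0.54 (SE 0.21). With the animal as a block it was 0.54 and passed, as it did with RLE size factors, with DESeq2, without the sex term and with at least 10 counts in every library. These calls show only how the threshold depends on the setting, and no support for a difference is read from them. Per kilobase Papss1 exceeded Papss2 39.9- to 66.4-fold in Low and 49.3- to 84.1-fold in High, and the log2 ratio was higher in High by 0.34 ± 0.04 (SD, n = 4 animals).

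Ephx1, the microsomal epoxide hydrolase, changed least of the hydrolases. It stood at 73.5, 128, 105 and 145 CPM in the Low libraries of Female1, Female2, Male1 and Male2 and at 60.7, 92.0, 71.7 and 122 CPM in their High libraries. The fractions overlapped because the animals differed by more than the fractions did, yet High was below Low in each animal, by 0.25 to 0.55 on the log2 CPM scale. The means were 113 ± 31 and 86.6 ± 27.0 CPM (SD, n = 4 each), with a log2 fold change of −0.38 (SE 0.25) that did not pass. With the animal as a block it was −0.39 and passed as lower, a call from which no support is read. Gm36961, whose exons overlap Ephx1 on the same strand, had at most 2 counts.

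Ephx2, the soluble epoxide hydrolase, was low but higher in High. It stood at 2.72, 2.64, 2.02 and 3.50 CPM in the Low libraries of Female1, Female2, Male1 and Male2 and at 9.18, 8.97, 9.91 and 11.3 CPM in their High libraries. The fractions did not overlap, the means were 2.72 ± 0.61 and 9.85 ± 1.06 CPM (SD, n = 4 each), and the log2 fold change was 1.85 (SE 0.20), or 3.60-fold. Ephx3, the hydrolase of fatty acid epoxides in the epidermal barrier, had the largest increase. In Low it stood at 23.3, 27.9, 10.9 and 47.5 CPM in Female1, Female2, Male1 and Male2, and in High at 317, 377, 331 and 471 CPM. No High library came near a Low library, and the Low libraries varied more among themselves (coefficient of variation 55.4%) than the High libraries (18.6%). The means were 27.4 ± 15.2 and 374 ± 70 CPM (SD, n = 4 each), with a log2 fold change of 3.77 (SE 0.40), or 13.6-fold.

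The Low libraries had the same order in Ephx3 as in the summed suprabasal markers. Male1 was lowest in both (10.9 CPM beside a marker sum of 9374 CPM), followed by Female1 (23.3 beside 13514), Female2 (27.9 beside 20079) and Male2 (47.5 beside 26729). The other genes that were higher in High did not keep this order. Sult2b1 and Ephx2 also had Male1 lowest and Male2 highest, but Female1 above Female2 (81.5 and 68.5 CPM for Sult2b1, 2.72 and 2.64 for Ephx2). Papss1 was lowest in Female1. With 4 libraries no correlation was computed, and the part of differentiated cells within the Low gate was not tested.

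Within libraries the hydrolases exchanged rank. Per kilobase Ephx3 was 0.247, 0.170, 0.0812 and 0.255 times Ephx1 in the Low libraries of Female1, Female2, Male1 and Male2, and 4.07, 3.20, 3.60 and 3.00 times Ephx1 in their High libraries. The log2 ratio was higher in High by 4.33 ± 0.81 (SD, n = 4 animals), whatever the scaling. Ephx1 made up 83.1% ± 6.1 of the length-corrected hydrolase counts in Low and 22.1% ± 2.3 in High, Ephx3 15.3% ± 5.8 and 75.8% ± 2.1, and Ephx2 1.63% ± 0.44 and 2.04% ± 0.30 (SD, n = 4 each). The summed level of the 3 hydrolases was 70.0 ± 20.6 CPM per kilobase in Low and 198 ± 42 in High.

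**Figure D2:**
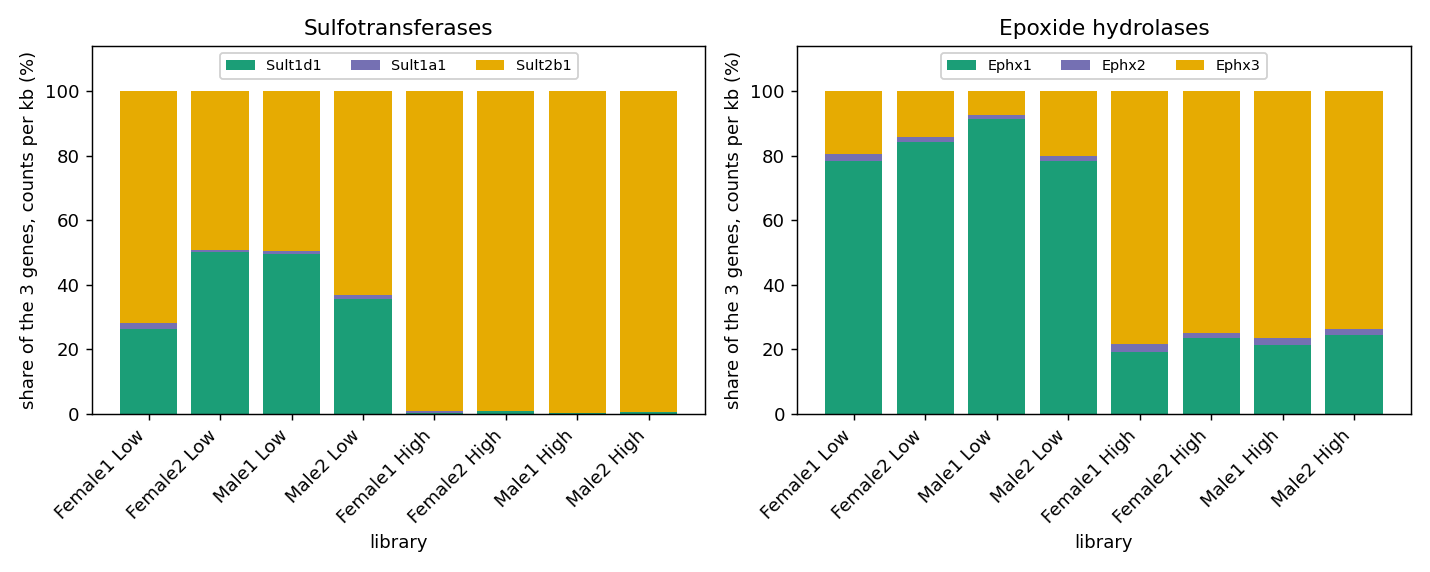
Share of each gene in the length-corrected counts of the 3 sulfotransferases (left) and the 3 epoxide hydrolases (right), 1 bar per library. Sult1d1 holds 26.4% to 50.1% in the Low libraries and at most 0.835% in the High libraries, and Ephx3 goes from 7.41% to 20.05% in Low to 73.7% to 78.5% in High.

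Set side by side per kilobase, the order in Cyto-ID Low was Ephx1 (57.9 CPM per kilobase), Papss1 (35.8), Sult2b1 (17.9), Sult1d1 (12.3), Ephx3 (10.96), Ephx2 (1.09), Papss2 (0.636) and Sult1a1 (0.354). The ranges of Ephx1 and Papss1 overlapped between animals, as did those of Sult2b1, Sult1d1 and Ephx3, and all other neighbours stood apart. Within each of the 4 Low libraries Ephx1 was above Papss1 per kilobase. In CPM it was below Papss1 in Female1 (73.5 and 81.9) and above it in Female2, Male1 and Male2. In Cyto-ID High the order was Ephx3 (149.5), Sult2b1 (97.7), Papss1 (66.95), Ephx1 (44.4), Ephx2 (3.96), Papss2 (0.926), Sult1d1 (0.465) and Sult1a1 (0.150). Between animals, the ranges of each neighbour among the first 4 overlapped with the next, as did Papss2 with Sult1d1 and Sult1d1 with Sult1a1. Within a library the first 4 kept this order in 4 of 4, with Ephx3 at 1.47 to 1.64 times Sult2b1 and Sult2b1 at 1.23 to 1.88 times Papss1, and Papss2 was above Sult1d1 in 4 of 4. The order rests on the length of all annotated exons, 3950 bases for Sult2b1 and 2502 for Ephx3, while the transcripts in use are not known. In CPM of the High libraries, Sult2b1 was above Ephx3 in Female1, Female2 and Male2 and below it in Male1 (means 386 and 374).

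The scaling of the libraries bears on the size of each difference, and on the calls of the genes with small differences. Krt4 and Krt13 took 10.8% to 14.0% of all counts in High and 0.858% to 2.53% in Low, and the TMM factors were 0.679 to 0.944 in High and 1.16 to 1.304 in Low. Scaling by total counts only moved the median log2 fold change of all genes by −0.55, from −0.09 to −0.64, and the genes called higher from 48.0% to 20.5% of those called. Among the 8 genes 3 were then higher and 2 lower. Papss1 was no longer called (0.30), Ephx1 was called lower (−0.99) and Papss2 turned to −0.03, still not called. Relative to the median of all genes under each scaling, Papss1 lay at 0.99 and 0.94, Papss2 at 0.63 and 0.61, and Ephx1 at −0.29 and −0.35. The direction of Sult1d1, Sult2b1, Ephx2 and Ephx3 was the same under TMM, RLE size factors and total counts, with total-count values of −5.38, 1.87, 1.29 and 3.19.

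**Figure D3:**
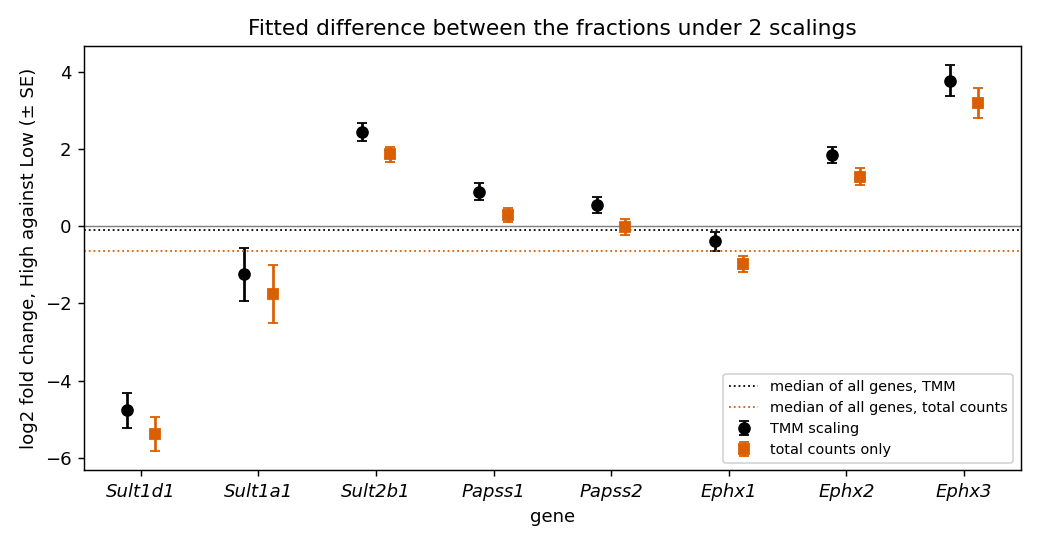
Fitted log2 fold change of High against Low (points, with SE as bars) for each gene under TMM scaling (black) and total counts only (orange); dotted lines are the medians of all tested genes. The total-count values lie lower for every gene, and Papss2 goes from 0.54 to −0.03.

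Sex was a comparison that had no part in the choice of these genes. In a model with a sex by fraction term, 0 of 17344 genes (0%) and 0 of the 8 passed (edgeR, Benjamini-Hochberg adjustment, threshold 0.05), with 19 genes at an unadjusted p under 0.05, none of them among the 8, and 0 genes by DESeq2. If no gene differed, a share of about 0.05 would fall there. With only 19 genes the test was conservative on these data, so the lack of a call says little. The estimates, male minus female change, ran from −1.301 for Sult1a1 to 0.36 for Sult2b1. On simulated counts the test recovered 0% of changes of 1.5 on the log2 scale and 69.5% of changes of 3, so that a sex difference of 1.5 or less was not detectable. The simulated counts held no effect of the animal, so recovery on these data may have differed. When both fractions of an animal were summed, 4 of 19687 genes (0.0203%) differed between males and females and 0 of the 8, none of which had an unadjusted p under 0.05. Male minus female log2 differences of the 8 ran from −0.38 for Sult1a1 to 0.28 for Ephx1.

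The wider pathway was read from 10 lists in the same fit, with p-values from edgeR's quasi-likelihood test adjusted over all 17344 genes. Among 99 tested genes, 37 were higher and 23 lower, where 23.4% of all genes were higher and 25.3% lower. The counts of each list are to be read against these shares, and no list was tested against them. Of the 60 calls, 6 were of genes with under 10 counts in some library of the fraction where they were lower, so that the filter kept them through the other fraction: Ugt1a1 among the higher, and Chst12, Cyp1b1, Gstm7, Gstt1 and Hnmt among the lower. They are in the counts of their lists, but their calls are not support for a direction. The remaining cytosolic sulfotransferases added little. Of 18 genes 7 had no count in any library, 2 were tested and 0 passed, with 0 also by total counts among the higher and 1 among the lower. Sult5a1 had 15 to 29 counts in Low and 0 to 11 in High, with a fitted difference of −1.75 in log2 (SE 0.69; adjusted p 0.0623 in edgeR, and 0.0327 with the animal as a block). It was kept by the filter through the Low libraries, where it is higher, so these p-values are no support for a fall. Sult1c2, named here after its values were seen, had 18 counts in the High library of Female2, the library with the highest gastric marker sum, and at most 1 in each of the other 7.

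The next list held genes that supply sulfate and PAPS or clear the product PAP. Of 9 genes 6 were tested, 0 rose and 3 fell, a share of calls near the 48.7% of all genes, with a median log2 fold change of −0.34 against −0.09 for all genes. By total counts 5 fell. Slc26a2, the sulfate transporter, averaged 135 ± 13 CPM in Low and 83.1 ± 15.0 in High (SD, n = 4 each) and fell, with a log2 difference of −0.70 (SE 0.17; edgeR, adjusted p 0.00602). Slc35b3, a PAPS transporter of the Golgi, changed by −0.55 (SE 0.20, edgeR adjusted p 0.0432), a call lost when any of 7 of the 8 libraries was left out (edgeR adjusted p up to 0.151), with both libraries of Female2 (0.181) or Male2 (0.105) left out, and with RLE size factors (0.0730), DESeq2 (0.0739), no filter (0.0557) or at least 10 counts in every library (0.0563).

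Golgi sulfotransferases, which use the same donor on proteins and sugar chains, moved both ways. Of 36 genes 21 were tested, 5 rose and 7 fell, with a median of −0.16 that was −0.49 without Male1 High and −0.08 without Male2 Low. By total counts 2 rose and 10 fell. Chst11, which sulfates chondroitin, fell from 18.4 ± 1.5 to 2.49 ± 1.38 CPM (log2 fold change −2.87, SE 0.36, edgeR adjusted p 0.000138). Tpst1, a tyrosylprotein sulfotransferase, changed by −2.50 (SE 0.22) and Hs6st1, which acts on heparan sulfate, by −1.52 (SE 0.23). Gal3st1, which makes sulfatide, rose from 13.4 ± 4.1 to 37.0 ± 12.6 CPM (1.45, SE 0.28, edgeR adjusted p 0.00201). Ndst1 of heparan sulfate synthesis rose by 1.04 (SE 0.15). Chst14 rose by 0.96 (SE 0.30), a call lost under total counts and without Female1 Low, Female2 High, Male1 Low or Male2 High.

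The list of sulfatases, which remove sulfate in the lysosome or at the cell surface, and of their activators was also mixed. Of 15 genes 14 were in the table, and of 12 tested 3 rose and 4 fell. The median was −0.27, but −0.08 without Male2 Low, −0.16 without both libraries of Female2 and −0.0078 without both of Male2. By total counts 0 rose and 6 fell. Sts, the steroid sulfatase that hydrolyses cholesterol sulfate, was not analysed here. Sgsh, Arsb and Arsk fell by 1.03, 0.83 and 0.64 on the log2 scale (SE 0.28, 0.17 and 0.19). The call of Arsk was lost without Female1 High, Female2 Low, Male1 High or Male2 Low (edgeR adjusted p up to 0.0677) and without both libraries of Male2 (0.0985). Sumf2, in the list as an activator and not as a sulfatase, and the sulfatase Ids rose by 0.81 and 0.77 (SE 0.16 and 0.22). Both calls were lost under total counts.

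Around the epoxide hydrolases, the genes of the list named after the linoleate epoxyalcohol route all rose. It holds genes that help to build the ceramide carrying linoleate, such as Pnpla1, and genes that then oxidize the linoleate. Both lead to the bound lipid envelope. The 7 genes of this list were tested and 7 passed as higher, under TMM and under total counts, with a median of 3.35. Alox12b, the lipoxygenase that starts the oxidation, rose from 70.8 ± 48.1 to 1276 ± 304 CPM (SD, n = 4 each), or by 4.17 (SE 0.57, edgeR adjusted p 0.000232). Pnpla1, which joins linoleate to the ceramide, rose by 3.38 (SE 0.29, edgeR adjusted p 2.11e-05) and Cyp4f39, which hydroxylates very long fatty acids, by 3.35 (SE 0.26, edgeR adjusted p 1.62e-05). Ephx3, at 3.77, lay within the range of these 7 genes, and the suprabasal marker list had a median of 3.22.

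Of 27 cytochromes P450 from families that include epoxide-forming enzymes, 6 were tested, 3 rose and 2 fell (median 0.58, −0.01 by total counts and 0.38 without Female1 Low). Whether each of them forms epoxides was not checked. Cyp2s1 rose from 209 ± 33 to 1248 ± 183 CPM (2.57, SE 0.19, edgeR adjusted p 1.4e-05), and Cyp2c65 from 18.3 ± 4.0 to 68.5 ± 16.7 CPM (1.92, SE 0.22, edgeR adjusted p 7.81e-05). Cyp2j9 fell from 5.71 ± 1.75 to 1.31 ± 0.27 CPM (−2.13, SE 0.29, edgeR adjusted p 0.000241). Cyp2j6 rose by 0.58 (SE 0.20, edgeR adjusted p 0.0338) and was at −0.0041 by total counts. Its call was lost when any of 5 of the 8 libraries was left out (edgeR adjusted p up to 0.115) and without both libraries of Male2 (0.0651). Without both libraries of Male2, 2 rose and 1 fell, and 3 passed without its Low library alone. Of the 2 other hydrolases, Lta4h, which acts on leukotriene A4, rose by 0.59 (SE 0.16, edgeR adjusted p 0.0118) and was at 0.0028 by total counts. Ephx4 stood at 0.55 in log2 (SE 0.22; adjusted p 0.0646 in edgeR, and 0.033 with the animal as a block). Without the High library of Male1, 2 of 2 passed.

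Other conjugating enzymes were read as 2 lists. Of 26 glutathione transferases, which also open epoxides, 25 were tested, 14 rose and 3 fell (median 0.64), and 9 rose and 4 fell by total counts (median 0.059). Gsta2 rose from 12.8 ± 3.6 to 77.4 ± 17.0 CPM (2.59, SE 0.25), Gstm6 by 2.55 (SE 0.25) and Gsta4 from 686 ± 162 to 2733 ± 565 CPM (2.00, SE 0.23), while Gstz1 fell by 0.57 (SE 0.15). Members of the alpha and mu classes resemble each other closely, so reads may have been split between them. Of 21 glucuronosyl-, methyl- and acetyltransferases 9 were tested, 2 rose and 2 fell (median −0.36, −0.17 without Male2 High and −0.18 without both libraries of Male2), and 2 rose and 5 fell by total counts. Ugt1a1 stood at 0.544 ± 0.356 CPM in Low and 7.27 ± 1.21 in High, on 4 to 31 and 144 to 205 counts. It was kept by the filter through the High libraries. Ugt1a7c rose from 26.1 ± 7.4 to 72.0 ± 19.7 CPM. Ugt1a1 and Ugt1a7c share exons with each other and with other Ugt1a genes, and their counts are uncertain. Ugt2b34 fell from 6.36 ± 2.11 to 0.860 ± 0.484 CPM (−2.88, SE 0.42, edgeR adjusted p 0.000378).

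The last list held receptors of foreign compounds and targets of cholesterol sulfate. It also held other regulators, among them Keap1 and Ppard, so its counts are those of a mixed list. Of 12 genes 9 were tested, 2 rose and 2 fell (median 0.39, and −0.20 by total counts). A block for the animal gave 4 higher and 2 lower, RLE size factors 4 and 1, and DESeq2 5 and 2. Prkch, a protein kinase C that cholesterol sulfate activates, rose from 49.5 ± 8.9 to 156 ± 30 CPM (1.66, SE 0.19, edgeR adjusted p 9.06e-05), and Ppard, a nuclear receptor for fatty acids, rose by 0.97 (SE 0.16, edgeR adjusted p 0.000865). Ahr, the receptor that binds the xenobiotic response element, fell from 201 ± 79 to 102 ± 12 CPM (−0.97, SE 0.30, edgeR adjusted p 0.0217). Keap1, the inhibitor of Nrf2, fell by 0.51 (SE 0.18, edgeR adjusted p 0.0353, and 0.0557 with RLE size factors). The calls of Ahr and Keap1 were each lost without single libraries (edgeR adjusted p up to 0.0910 and 0.101), that of Ahr also without both libraries of Male2 (0.0633), and without the High library of Male1 only 2 genes of the list passed. Among the named genes of these lists, exons of Ahr, Arsb, Cyp2s1, Gstz1, Hs6st1, Keap1, Pnpla1, Sgsh, Slc35b3, Sumf2, Ugt1a1 and Ugt1a7c overlap another gene on the other strand.

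**Figure D4:**
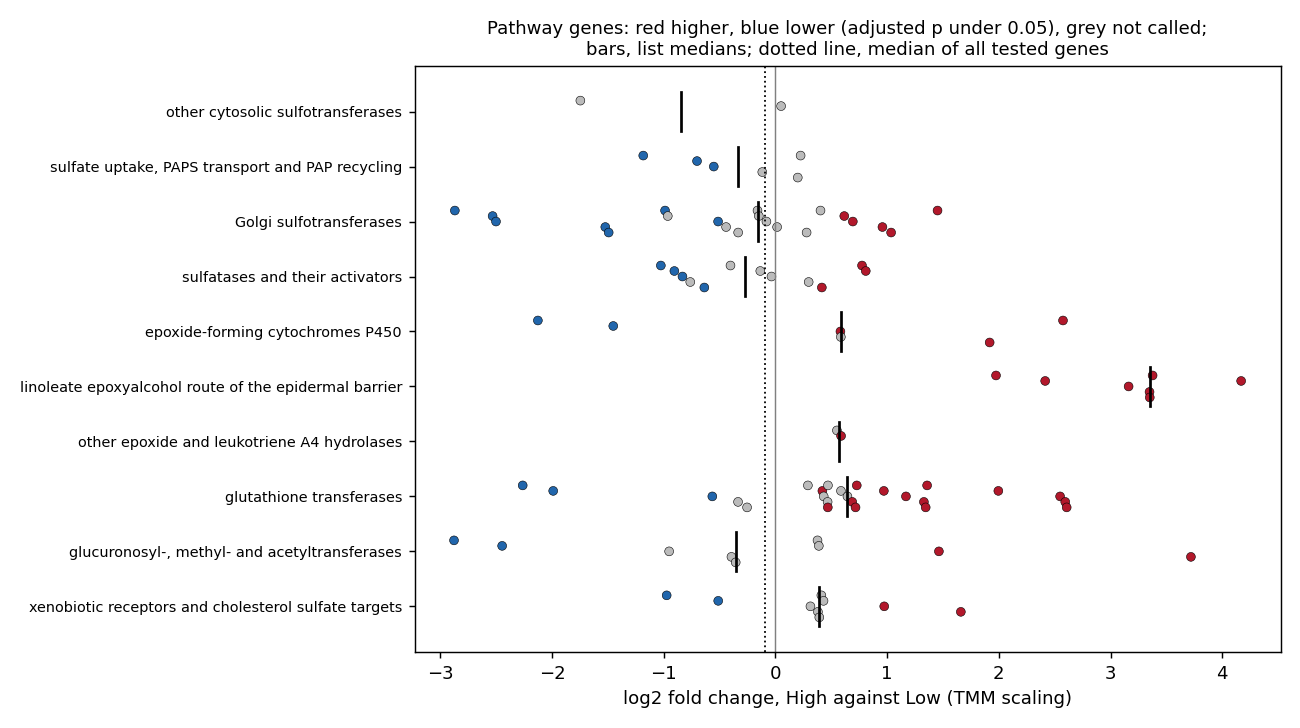
Log2 fold change of High against Low for the 99 tested genes of 10 pathway lists, 1 point per gene, red for higher and blue for lower at an adjusted p under 0.05, with black bars at list medians and a dotted line at the median of all genes. The linoleate route has the highest list median, 3.35, with all 7 of its genes red.

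The genes whose levels followed a member most closely were sought among 10007 genes with a mean of at least 5 CPM, by Pearson's correlation of log2 CPM over the 8 libraries. These 8 points fall into 2 fractions, so the correlation is mostly that split and is given as a description. For Sult1d1 they were Cdca7l, Zfp462, Fbxo25, the pseudogene Anp32b-ps1 and Sept10, with r from 0.992 to 0.995. Their own log2 fold changes ran from −0.91 to −2.58, smaller than that of Sult1d1. For Sult2b1 they were Dbi, Gsta2, Fetub, Spire2 and Pqlc2, with r from 0.997 to 0.998 and log2 fold changes from 2.19 to 2.59, close to the 2.45 of Sult2b1.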

How the data were processed

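The file the authors deposited holds raw counts for each gene symbol in 8 libraries, since its values are whole numbers whose totals differ between libraries. STAR 2.7.3, DESeq2 and GRCm38 are listed in the submitters' processing notes without a role. The counting tool, annotation, strand setting and filters are not given in the sources used here, and reads of overlapping or near-identical genes may have been split or dropped. All 8 columns matched sample titles. Within a fraction, every pair of libraries differed by more than sampling noise (chi-square per degree of freedom at least 17.7).

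The analysis used edgeR 4.0.16 in R 4.3.3: filterByExpr (17344 genes kept), TMM factors, and glmQLFit and glmQLFTest of High against Low with sex as a covariate, two-sided, with Benjamini-Hochberg adjustment over all tested genes and a threshold of 0.05. SEs were derived from the F statistic. Sex was tested as an interaction and, on counts summed per animal, as 2 against 2. On simulated counts the test of High against Low recovered 69% of 200 changes of 1.5 (log2) and 92% of changes of 3, with 11 and 10 false calls. Same-named libraries of both fractions were taken as 1 animal, as the names read. Their deviations from the fraction means correlated at 0.43 (Female1), 0.32 (Female2), −0.02 (Male1) and 0.28 (Male2) across genes, and between different animals at −0.37 to 0.35, so the pairing rests on the names.

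Exon lengths, positions and overlaps come from GENCODE M21 (GRCm38) and start windows from RefSeq (GRCm38.p6), where 7 of the 8 genes were found. The 8 genes, the 10 pathway lists and the 7 marker lists were chosen with earlier results of these data known. From each list the text names up to 3 genes per direction with the largest change among those called with at least 5 CPM in a fraction; 1 result is not reported here. Alternatives were RLE and total-count scaling, 2 filters, DESeq2 1.42.0, no sex term, the animal as a block and single libraries left out. Leaving out both libraries of Female2 or of Male2 was added after the data were seen.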

Additional observations from a re-analysis of the deposited data

Results flagged for a closer look

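In 52 groups of 4 values (levels, differences per animal, marker sums and ratios) the lowest and highest were tested for distance from the rest by Dixon's ratio of gap to range, which singles out about 1 group in 20 by chance, and 3 were singled out. In the High minus Low difference of Ephx2, Male1 stood apart at 2.26 log2 CPM, where Female1, Female2 and Male2 had 1.73, 1.74 and 1.67 (ratio 0.888). Male1 had the lowest Ephx2 level of the Low libraries, 2.02 CPM. The gastric marker sum stood apart in Female2 in both fractions, at 19.8 CPM in Low (ratio 0.962) and 117 CPM in High (ratio 0.997). Without both libraries of Female2 the same number of the 8 genes was called in each direction.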

How the results depend on the processing

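Where 8440 genes were called between the fractions, 6 other settings gave 8066 to 10708, the replicate block (animal) gave 9336, and leaving out single libraries gave 7269 to 8106. Without both libraries of Male2 there were 7279. The block changed the calls of Papss2 and Ephx1 among the 8 genes, and added 11 calls and removed 0 among the 99 pathway genes. Under total counts only, 5 of the 8 genes moved by more than the spread between animals: Sult2b1 to 1.87, Papss1 to 0.30, Papss2 to −0.0273, Ephx1 to −0.99 and Ephx2 to 1.29. With single libraries left out, log2 fold changes ran from −5.21 to −4.47 for Sult1d1, −2.41 to −0.89 for Sult1a1, 2.25 to 2.61 for Sult2b1, 0.73 to 1.05 for Papss1, 0.46 to 0.62 for Papss2, −0.57 to −0.21 for Ephx1, 1.68 to 2.02 for Ephx2 and 3.46 to 4.30 for Ephx3. With at least 10 counts in every library Sult1a1 was not tested. Of the 32 named pathway genes, 26 kept their call without each single library, and 6 did not (Ahr, Arsk, Chst14, Cyp2j6, Keap1 and Slc35b3). Cyp2j6 (−0.00412) changed sign under total counts, where the median of all genes moved by −0.55. The cause was not tested. The sex by fraction test gave 0 genes under each other scaling, filter, tool, block and left-out library tried for it. In the receptor list 7 genes passed by DESeq2, and Ephx4 and Lta4h both passed with RLE and with DESeq2. The male against female count of 4 was 15 without a filter, 9 with DESeq2, 1 with the Low libraries alone, 0 with the High libraries alone (0 of the 8 genes in each), and 6 to 48 with single animals left out (48 without Male1), for a cause that was not tested. Depth limits Sult1a1 and, in Cyto-ID High, Sult1d1.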
